A study of Mus musculus with 6 samples.

Results

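The 10 genes described here come from families in which some members hold cells in a nondividing state. The genes are the Kruppel-like factors Klf2, Klf3, Klf4, Klf6, Klf7, Klf10 and Klf13, and the antiproliferative genes Btg1, Btg2 and Tob1. They were chosen by symbol, and each matched 1 Ensembl identifier among the 39179 in the expression table. RNA-Seq was done on germinal center (GC) B cells (Fas+GL7+) and naive, or resting, B cells (Fas-GL7-) sorted from Peyer's patches, the gut-associated follicles in which intestinal antigens keep GCs going. The mice were littermate WT C57BL/6 females aged 12 wk, with no engineered allele or treatment in their labels. Each population was measured in 3 pools of 5 mice. The sort used Fas, so Fas itself is no result, and the transcripts of a pool are an average over all its cells. Values are transcripts per 1000000 (TPM), a share of all transcripts in a pool that is corrected for gene length, so levels of different genes can be compared. In such pooled material, fewer cells expressing a gene and less of its RNA in each cell cannot be told apart.

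Kruppel-like factors are zinc finger proteins that bind CACCC and GC-rich elements in promoters. Klf2 keeps resting lymphocytes out of the cell cycle and maintains receptors for egress and homing, Klf4 restrains division in several cell types, and Klf3 is a repressor that recruits CtBP proteins. BTG and TOB proteins connect the CCR4-NOT deadenylase to target mRNAs, which shortens poly(A) tails, lowers mRNA abundance and maintains quiescence in lymphocytes. Naive B cells are quiescent, whereas GC B cells are among the most rapidly dividing cells of the adult animal.

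The promoters of the members that differed most in each family are shown first, because they place the genes in the genome and show which elements lie close to their start. A window of the 250 bases before the RefSeq gene start (GRCm38.p6) was found for 9 of the 10 members, all but Klf10. The windows of Klf7 and Tob1 lie inside the annotated gene, before an internal start. The window of Klf2 is chr8:72318812-72319061 on the plus strand, with a MEF2 motif and a CACCC box in capitals. The window of Klf3 is chr5:64803271-64803520 on the plus strand, with its CACCC boxes in capitals. The window of Btg1 is chr10:96616751-96617000 on the plus strand, with a FOXO core in capitals. The window of Btg2 is chr1:134079156-134079405 on the minus strand, with a cAMP response element in capitals. All are written 5′ to 3′ in the direction of the gene.
Klf2: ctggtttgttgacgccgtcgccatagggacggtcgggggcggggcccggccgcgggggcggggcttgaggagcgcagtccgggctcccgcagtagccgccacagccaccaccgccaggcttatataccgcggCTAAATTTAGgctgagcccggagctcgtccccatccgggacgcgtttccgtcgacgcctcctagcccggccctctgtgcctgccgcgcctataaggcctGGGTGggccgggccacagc
Klf3: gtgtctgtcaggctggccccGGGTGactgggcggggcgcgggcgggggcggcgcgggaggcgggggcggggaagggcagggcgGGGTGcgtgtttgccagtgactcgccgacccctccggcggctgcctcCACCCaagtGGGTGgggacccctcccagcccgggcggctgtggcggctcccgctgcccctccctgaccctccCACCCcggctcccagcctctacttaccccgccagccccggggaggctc
Btg1: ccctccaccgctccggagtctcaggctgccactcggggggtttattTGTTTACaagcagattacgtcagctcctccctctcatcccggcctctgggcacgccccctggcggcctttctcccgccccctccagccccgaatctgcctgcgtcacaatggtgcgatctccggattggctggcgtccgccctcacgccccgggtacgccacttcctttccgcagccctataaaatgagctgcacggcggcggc
Btg2: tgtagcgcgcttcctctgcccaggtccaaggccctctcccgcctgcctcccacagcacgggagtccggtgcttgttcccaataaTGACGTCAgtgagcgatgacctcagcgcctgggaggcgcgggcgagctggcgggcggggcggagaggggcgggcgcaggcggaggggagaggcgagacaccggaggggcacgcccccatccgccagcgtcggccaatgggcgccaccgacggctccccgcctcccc

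Both strands of each window were searched for CACCC (the CACCC box), GGGCGG (the GC box), TGTTTAC (the FOXO core), TGACGTCA (the cAMP response element), TATAAA (the TATA box), CCAAT, the MEF2 motif and the CArG box of serum response factor. The shared property of the 9 windows was their base composition. Their G and C content lay between 59.2% in Klf7 and 78.4% in Klf3, against a median of 52.4% over 32841 promoters, and they held between 13 and 32 CpG dinucleotides, against a median of 6. All 9 windows held a GC box, which 32.7% of all promoters do. A CACCC box was found in 5 of 9, compared with 52.0% of all promoters, and CCAAT in 5 of 9, compared with 33.9%. The Klf3 window held 5 CACCC boxes and 6 GC boxes, and the CACCC box at -167 shares its first base with the end of a GC box. In Klf2 the MEF2 motif lies from -118 to -109, counting back from -1 at the last base before the start, and this motif is in 2.92% of promoters. The FOXO core of Btg1 lies from -204 to -198 and is in 3.17% of promoters, and the cAMP response element of Btg2 lies from -166 to -159 and is in 1.55%. A TATA box was present in Btg1 and Tob1 (12.4% of promoters), and a CArG box in 0 of 9 (1.47% of promoters). These are matches of letters and do not show that a factor binds there.

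**Figure D1:**
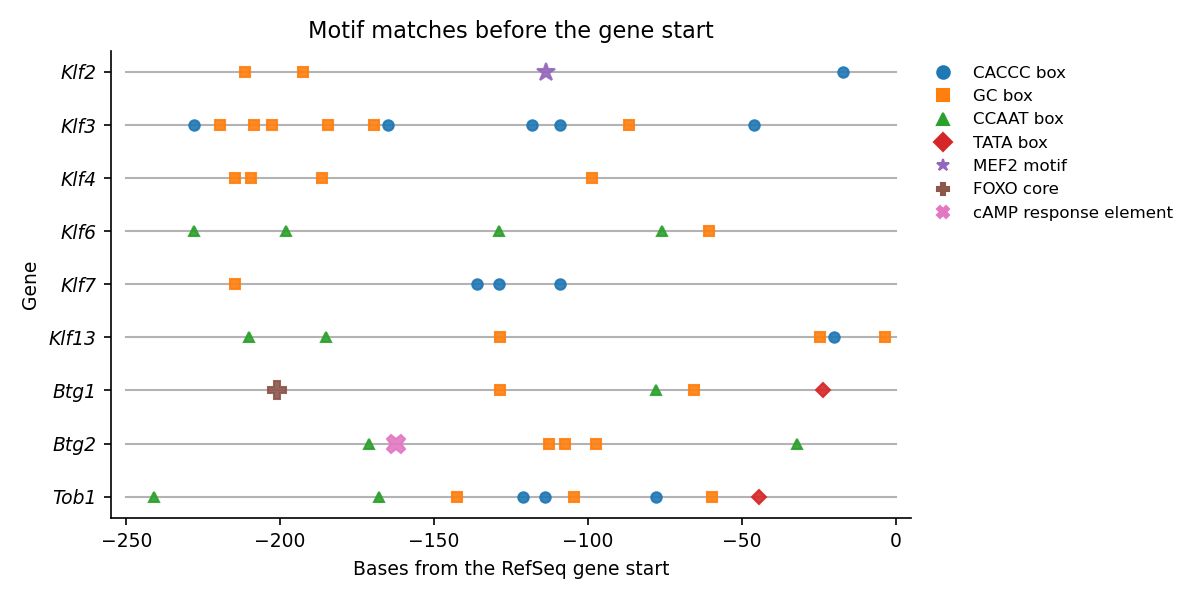
Motif matches in the 250 bases before the RefSeq start of 9 members, with distance from the start in bases on the horizontal axis and 1 line per gene. Each symbol is the centre of a match on either strand; every line carries at least 1 GC box, and the 5 CACCC boxes of Klf3 are spread along its window.

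All 10 members were expressed, with a lowest value of 0.648 TPM (Klf3 in a GC pool) and none listed at 0. All 10 were among the 12785 genes tested. The test took genes reaching 1 TPM in 3 or more pools. Klf3 reached this level only in the naive pools, and Klf4 in all pools but GC replicate 3. Expression of 8 members was lower in GC B cells than in naive B cells: Klf2, Klf3, Klf4, Klf6, Klf7, Klf13, Btg1 and Btg2. Klf10 was higher in GC B cells, and Tob1 did not pass the threshold. The threshold was a Benjamini-Hochberg adjusted p under 0.05 over all genes tested, in limma on log2(TPM + 1), and each adjusted p given for a gene is from this test. By this test 30.1% of all genes were lower in GC B cells and 35.5% were higher. The pools of GC and naive B cells did not overlap for any member, with 9 lower and 1 higher in GC B cells, whereas 32.8% of all genes were lower and 37.8% were higher without overlap. The median log2 difference, GC minus naive, was -1.16 over the 10 members and 0.03 over all genes.

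**Figure D2:**
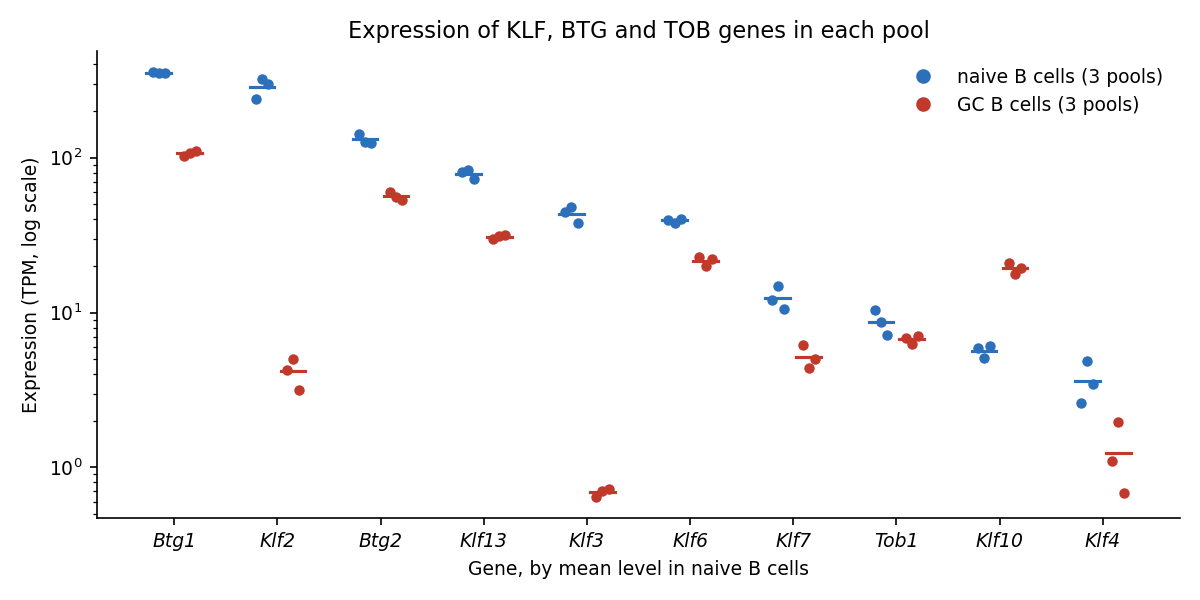
Expression of the 10 members in each pool, in TPM on a log scale, with blue points for 3 naive pools, red points for 3 GC pools and a bar at each mean. Klf2 and Klf3 fall furthest from blue to red, and Klf10 is the gene whose red points are above the blue.

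Among the factors tied to quiescence, Klf2 (ENSMUSG00000055148; chr8:72319062-72321654) had the largest difference of the 10 members (gene positions are those of RefSeq on GRCm38.p6). GC replicates 1 to 3 had 4.29, 5.02 and 3.18 TPM, and naive replicates 1 to 3 had 241.0, 321 and 299 TPM. Every naive pool was thus far above every GC pool, and Klf2 went from the second highest level of the 10 members in naive B cells to the eighth in GC B cells. The means were 287 ± 41.2 and 4.16 ± 0.930 TPM (SD, n = 3 pools), a 68.9-fold difference. The log2 difference was -5.81 (SE 0.165, 95% interval -6.21 to -5.41, adjusted p = 6.96e-07), and it ranked 7 from the lowest among the 12785 genes. About 38 to 61 reads lay behind each GC value, estimated from the steps between low values.

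Klf3 (ENSMUSG00000029178; chr5:64803521-64832901), the CtBP-recruiting repressor, was barely detected in GC B cells. Its level was 0.648, 0.706 and 0.725 TPM in the GC pools and 44.4, 47.9 and 38.0 TPM in the naive pools. The GC pools were nearly equal, with about 12 reads each. The means were 0.693 ± 0.0402 and 43.5 ± 5.01 TPM (SD, n = 3), a 62.7-fold difference on the TPM scale. On the log2(TPM + 1) scale, which understates the change of a gene this low, the difference was -4.71 (SE 0.112, 95% interval -4.98 to -4.44, adjusted p = 3.78e-07). Klf3 passed the filter only through its naive pools, so the filter favored this direction. In limma without the filter on low values the adjusted p was 2.64e-06.

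Klf4 (ENSMUSG00000003032; chr4:55527137-55532475), which restrains the cell cycle and also drives epithelial differentiation, was the least expressed member in naive B cells. It measured 1.10, 1.95 and 0.683 TPM in GC replicates 1 to 3 and 2.61, 4.83 and 3.45 TPM in naive replicates 1 to 3. The highest GC pool and the lowest naive pool were 1.95 and 2.61 TPM, so the groups were separate by a narrow margin, with about 14 to 40 reads behind each GC value. The naive mean was 2.91-fold higher. The log2 difference was -1.05 (SE 0.269, 95% interval -1.70 to -0.405, adjusted p = 0.0128), and it was -1.62 with a pseudocount of 0.01. Only the naive pools all reached the 1 TPM of the filter, so the filter favored this direction. In limma without the filter on low values the adjusted p of Klf4 was 0.0283. Intestinal epithelium surrounds the follicles, and epithelial markers moved in the same direction: of 7 markers (Epcam, Krt8, Krt18, Krt20, Vil1, Lgals4, Cdh1), 5 were lower in GC B cells, 1 was higher and 1 was too low to test. Of these, 2 were lower without GC replicate 1 and 3 without GC replicate 3 or naive replicate 1. Their summed level was 37.0, 71.0 and 46.1 TPM in the GC pools and 139, 110.4 and 116 TPM in the naive pools, and none was listed at 0 in all pools. Within the GC pools replicate 2 had both the highest marker sum and the highest Klf4, and within the naive pools replicate 1 had the highest marker sum and the lowest Klf4. The part of epithelial RNA in the Klf4 result was not tested.

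The other KLF genes of the set that were lower in GC B cells changed less. Klf13 (ENSMUSG00000052040; chr7:63886351-63938915), an activator known from lymphocyte cytokine and chemokine genes, measured 30.1, 31.3 and 31.5 TPM in GC replicates 1 to 3 and 80.7, 83.2 and 72.7 TPM in naive replicates 1 to 3. Its naive level was 2.55-fold above its GC level (log2 difference -1.32, SE 0.066, adjusted p = 7.74e-06). Klf13 was the most abundant KLF in GC B cells. Klf7 (ENSMUSG00000025959; chr1:64029448-64122345), a broadly expressed activator studied mostly in neurons, measured 6.16, 4.36 and 5.03 TPM in GC replicates 1 to 3 and 12.0, 14.8 and 10.5 TPM in naive replicates 1 to 3. The naive level was 2.40-fold higher (log2 difference -1.12, SE 0.164, adjusted p = 0.00111).

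Klf6 (ENSMUSG00000000078; chr13:5861489-5870393), a widely expressed gene that is quickly induced by growth stimuli, had the smallest difference of the 6 KLF genes that fell. It measured 23.0, 19.8 and 22.2 TPM in GC replicates 1 to 3 and 39.8, 37.8 and 40.4 TPM in naive replicates 1 to 3. The spread within each group was small beside the gap between them, and the naive level was 1.81-fold higher (log2 difference -0.83, SE 0.075, adjusted p = 0.000111).

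Klf10 (ENSMUSG00000037465; chr15:38291464-38300711), a gene induced early by TGF-beta, went the other way. It measured 21.0, 17.7 and 19.3 TPM in GC replicates 1 to 3 and 5.89, 5.09 and 6.04 TPM in naive replicates 1 to 3. All GC pools were above all naive pools. The means were 19.3 ± 1.63 and 5.67 ± 0.510 TPM (SD, n = 3), a level 3.41-fold higher in GC B cells (log2 difference 1.61, SE 0.104, 95% interval 1.36 to 1.86, adjusted p = 2.46e-05).

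**Figure D3:**
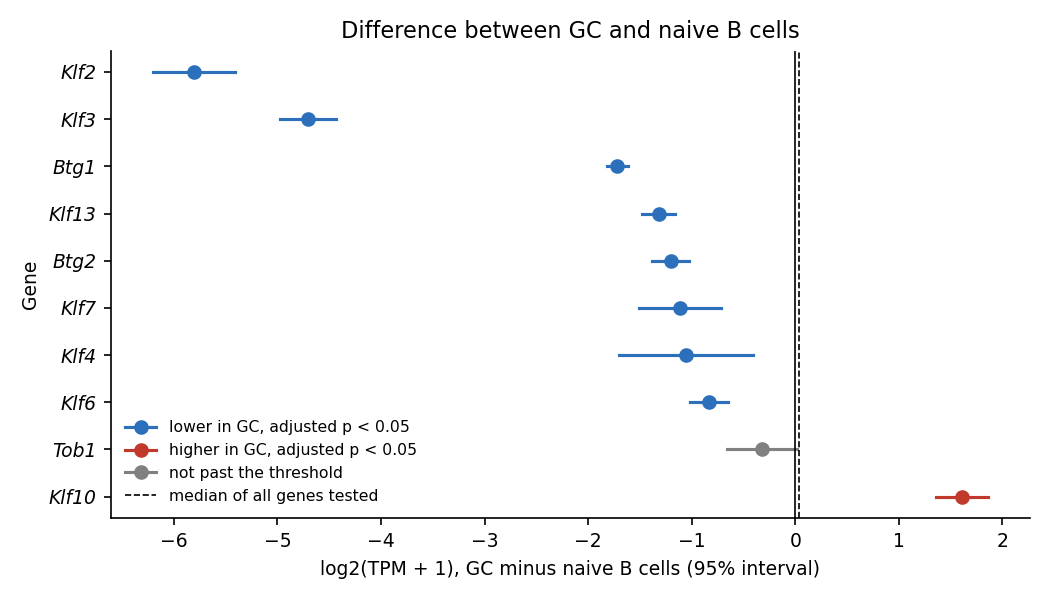
Difference between GC and naive B cells for each member on the log2(TPM + 1) scale, with 95% intervals from limma (3 pools per population) and a dashed line at the median of all genes tested. Klf2 and Klf3 lie below -4, 6 other members lie between -1.72 and -0.83, the interval of Tob1 reaches 0, and Klf10 lies at 1.61.

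In the BTG and TOB family, both BTG members fell and Tob1 did not pass the threshold. Btg1 (ENSMUSG00000036478; chr10:96617001-96622813), an adaptor of the CCR4-NOT deadenylase, was the most abundant member in both populations. It measured 103, 108 and 111 TPM in GC replicates 1 to 3 and 358, 352 and 355 TPM in naive replicates 1 to 3. The pools of each group were close together and far from the other group, and Btg1 was still the highest member in GC B cells despite a 3.31-fold difference. The log2 difference was -1.72 (SE 0.042, 95% interval -1.82 to -1.62, adjusted p = 3.91e-07), with the smallest standard error of the 10 members.

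Btg2 (ENSMUSG00000020423; chr1:134074865-134079155), a paralog of Btg1 that is also a p53 target, had 59.8, 56.0 and 53.4 TPM in GC replicates 1 to 3. The naive replicates had 143, 126 and 125 TPM. The groups were well apart, and the log2 difference was -1.20 (SE 0.074, 95% interval -1.38 to -1.02, adjusted p = 1.98e-05).

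Tob1 (ENSMUSG00000037573; chr11:94209842-94215495), a transducer of ERBB2 that binds CCR4-NOT and poly(A)-binding protein, measured 6.89, 6.26 and 7.08 TPM in GC replicates 1 to 3 and 10.3, 8.65 and 7.20 TPM in naive replicates 1 to 3. The groups nearly touched, at 7.08 and 7.20 TPM, and the naive pools varied more than the GC pools. The log2 difference was -0.32 (SE 0.139, 95% interval -0.655 to 0.018, adjusted p = 0.0859), an interval that includes 0. Tob1 passed the threshold with quantile normalization (-0.37, adjusted p = 0.0349), with scaling by the median of ratios (-0.35, adjusted p = 0.0442) and with FPKM as deposited (-0.35, adjusted p = 0.0408). It also passed without naive replicate 3 (-0.435, adjusted p = 0.0244).

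The order of the levels showed which KLF gene was predominant in each population. In naive B cells it was Btg1, Klf2, Btg2, Klf13, Klf3, Klf6, Klf7, Tob1, Klf10 and Klf4, and of the neighbors in this order only Klf3 and Klf6 overlapped between pools. In GC B cells it was Btg1, Btg2, Klf13, Klf6, Klf10, Tob1, Klf7, Klf2, Klf4 and Klf3, and the pools of Klf6 and Klf10, of Klf7 and Klf2, and of Klf4 and Klf3 overlapped.

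As a share of the summed TPM of the 7 KLF members, Klf2 was 60.8% ± 3.77 in naive B cells and 5.01% ± 1.18 in GC B cells (SD, n = 3). Klf13 went from 16.9% ± 1.82 to 37.2% ± 2.05, Klf6 from 8.43% ± 1.01 to 26.0% ± 1.30, and Klf10 from 1.22% ± 0.204 to 23.2% ± 1.21. A larger share is not a higher level: Klf13 and Klf6 themselves were lower in GC B cells, and of these only Klf10 was higher. The summed level of the 7 genes was 470 ± 44.1 TPM in naive and 83.2 ± 2.75 TPM in GC B cells, a 5.65-fold difference, which was 2.32-fold without Klf2. The 3 BTG and TOB members summed to 495 ± 14.4 TPM in naive and 170 ± 0.673 TPM in GC B cells, a 2.90-fold difference. Their proportions moved less, with Btg1 at 71.8% ± 1.54 in naive and 62.9% ± 2.04 in GC B cells, and Btg2 at 26.5% ± 1.30 and 33.1% ± 2.04.

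**Figure D4:**
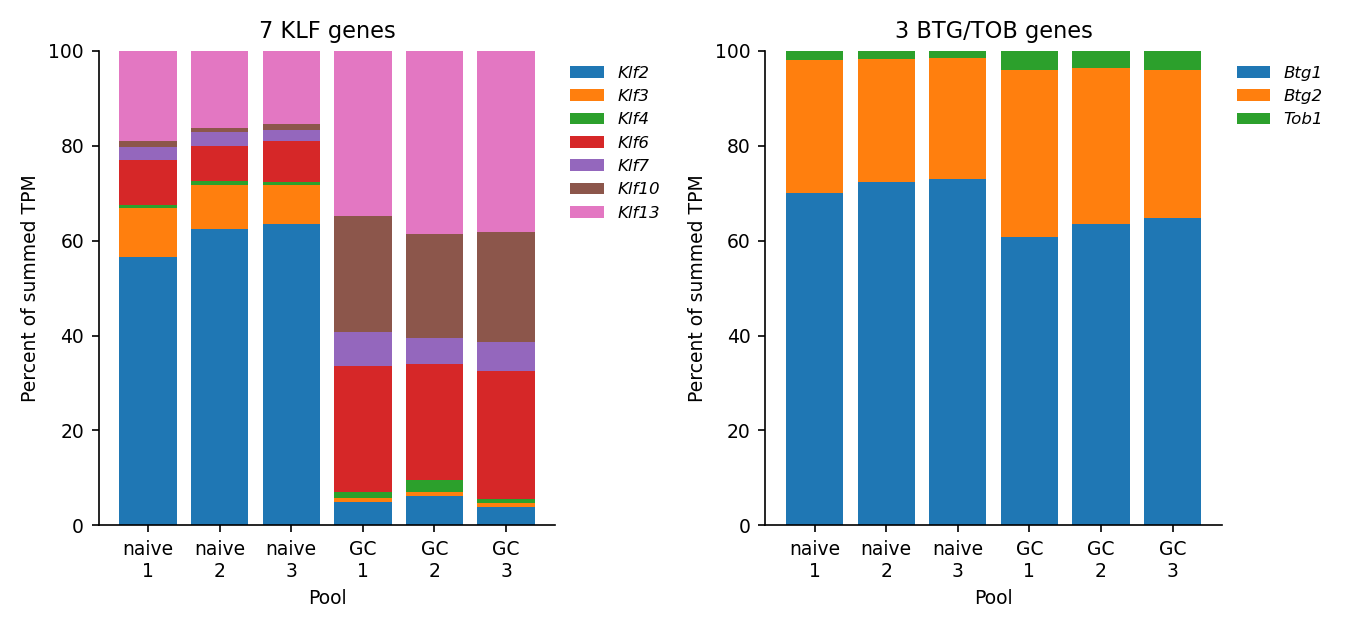
Share of each member in the summed TPM of its family, in percent, with 1 bar per pool (left, 7 KLF genes; right, 3 BTG and TOB genes). Klf2 (blue, left) fills over 56.5% of each naive bar and at most 6.21% of each GC bar, while Btg1 (blue, right) is the largest part of every bar.

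Of the 10 remaining KLF genes, 6 were high enough to test, 2 were lower in GC B cells and 0 were higher, with a median log2 difference of -0.42. Over all genes tested 30.1% were lower and 35.5% were higher, so 2 lower of 6 is close to the share of all genes. The counts of the later lists stand beside the same shares. Klf16 was the most abundant of them, with 18.6 ± 0.763 TPM in GC against 24.9 ± 1.25 TPM in naive B cells (-0.40, adjusted p = 0.00267). Klf12, a repressor, was at 0.670 ± 0.202 and 1.47 ± 0.415 TPM (-0.56, adjusted p = 0.034), and this call was lost without any 1 of GC replicates 1 and 3 and naive replicates 1 and 2. Like Klf3, Klf12 passed the filter only through its naive pools. Klf5, an epithelial and stem cell factor, was at 0.932 ± 0.520 and 1.89 ± 0.375 TPM (-0.61, adjusted p = 0.0512) with overlapping pools, and it passed the threshold under each other scaling, without the variance trend and without GC replicate 2. As for Klf4, the part of epithelial RNA in these values was not tested. Klf14 and Klf17 were listed at 0 in every pool.

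Among the remaining BTG and TOB genes, Tob2, the paralog of Tob1, carries 2 identifiers in the annotation. The more abundant one averaged 38.5 ± 0.769 TPM in GC against 54.4 ± 4.93 TPM in naive B cells (-0.49, adjusted p = 0.00145), several times the level of Tob1. The other was at 0.823 ± 0.461 and 1.11 ± 0.215 TPM with overlapping pools and did not pass the threshold (-0.24, adjusted p = 0.372). Btg3, an antiproliferative paralog, was at 14.8, 12.9 and 16.9 TPM in the naive pools but at 0, 0.0415 and 6.73 TPM in GC replicates 1, 2 and 3. It was lower in GC B cells (adjusted p = 0.0148), and the GC pools were uneven, so no mean or fold is given. Btg4 was listed at 0 in every pool. Of the related SP factors, which bind the same GC boxes, 4 of 9 could be tested and 3 were lower, with a median of -0.25: Sp4 (-0.50, adjusted p = 0.0122), Sp2 (-0.27, adjusted p = 0.00683) and Sp3 (-0.22, adjusted p = 0.0423). The call of Sp3 was lost without the filter on low values, without the variance trend and without any 1 pool other than naive replicate 3.

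The deadenylase partners of BTG and TOB proteins were mostly higher in GC B cells. Of 15 genes of the deadenylase machinery, 11 were higher in GC B cells and 0 were lower, with a median of 0.40. Among all genes tested 35.5% were higher and 30.1% were lower. Cnot6, a catalytic subunit of CCR4-NOT, averaged 85.0 ± 5.37 TPM in GC against 31.4 ± 4.02 TPM in naive B cells (1.41, adjusted p = 3.91e-05). Cnot9, another subunit, was at 49.9 ± 1.62 and 22.8 ± 0.830 TPM (1.10, adjusted p = 1.04e-05), and the poly(A)-binding protein gene Pabpc4 was at 199.8 ± 6.17 and 95.8 ± 3.01 TPM (1.05, adjusted p = 4.11e-06). The number higher was 10 to 12 over all alternatives, and with quantile normalization or without naive replicate 3 there was 1 lower gene, Cnot4. Cnot4 falls outside the rule for named genes and was named after its values were seen.

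Of 9 tested corepressors and coactivators of KLF proteins, 6 were higher in GC B cells and 0 were lower, with a median of 0.32 and 4 to 6 higher over the alternatives. Without naive replicate 3, 1 gene was lower, Crebbp, which was also named after its values were seen. The histone deacetylase gene Hdac3 averaged 73.6 ± 2.08 TPM in GC against 45.9 ± 1.31 TPM in naive B cells (0.67, adjusted p = 4.72e-05). Sin3a, a scaffold of deacetylase complexes, was at 54.1 ± 1.38 and 35.1 ± 2.45 TPM (0.61, adjusted p = 0.000276). Ubiquitin ligases linked to the turnover of KLF proteins were split, with 2 of 7 higher and 4 lower and a median of -0.37. For both lists the shares over all genes tested were 35.5% higher and 30.1% lower. Fbxw7, the substrate receptor that targets KLF2 among others, averaged 31.7 ± 1.60 TPM in GC against 12.2 ± 0.683 TPM in naive B cells (1.31, adjusted p = 1.47e-05). Vhl was higher as well (0.37, adjusted p = 0.00705), whereas Itch (-0.79, adjusted p = 0.000257), Btrc (-0.76, adjusted p = 0.00131) and Smurf1 (-0.61, adjusted p = 0.0024) were lower.

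Upstream of Klf2, FOXO factors and the ERK5 to MEF2 pathway are known activators, and their part in its level here was not tested. Of 9 genes of these pathways 5 were lower in GC B cells and 1 was higher, with a median of -0.27, and 3 were lower without naive replicate 1. Among all genes tested 30.1% were lower and 35.5% were higher. Foxo3 averaged 4.65 ± 0.559 TPM in GC against 20.3 ± 1.95 TPM in naive B cells (-1.91, adjusted p = 1.97e-05), Foxo4 differed by -1.07 (adjusted p = 0.00173), and Mef2d by -0.75 (adjusted p = 0.000173). Mapk7, which encodes ERK5, was higher in GC B cells (0.41, adjusted p = 0.0156), a call that was lost without naive replicate 2 (adjusted p = 0.0518). In that setting 2 other genes passed as higher, Map2k5 (0.24, adjusted p = 0.0466) and Mef2c (0.15, adjusted p = 0.0391), both named after their values were seen. Foxo1, chosen for mention after its values were seen, was at 82.7 ± 2.82 and 88.5 ± 5.42 TPM with overlapping pools (-0.10, adjusted p = 0.212).

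Among trafficking genes, 3 that Klf2 is known to maintain were lower in GC B cells. Whether they depend on Klf2 in these cells was not tested. The chemokine receptor gene Ccr7 averaged 1.01 ± 0.336 TPM in GC against 87.6 ± 8.46 TPM in naive B cells (-5.47, adjusted p = 6.19e-07). S1pr1, the receptor for lymphocyte egress, was at 4.57 ± 0.311 and 222 ± 20.3 TPM (-5.32, adjusted p = 1.36e-07), and the gut homing integrin gene Itgb7 was at 5.10 ± 0.471 and 187 ± 13.6 TPM (-4.95, adjusted p = 1.67e-07). In all 3 genes the GC and naive pools were separate.

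**Figure D5:**
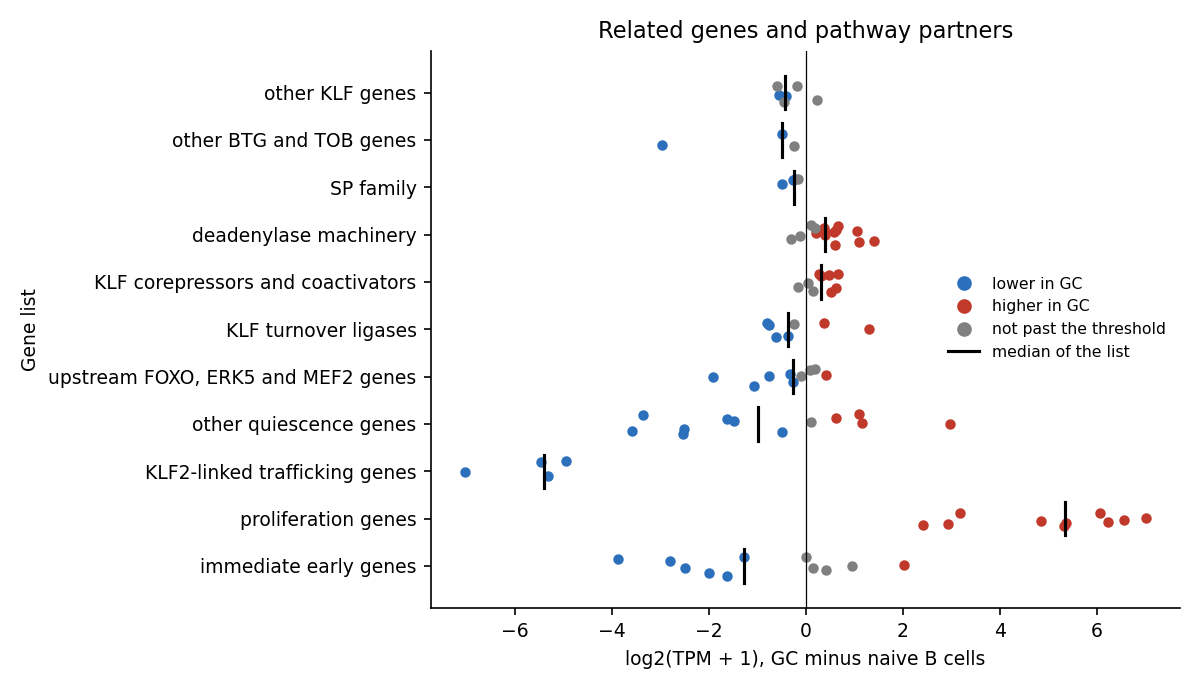
Log2(TPM + 1) difference, GC minus naive, of each tested gene in 11 lists of related genes and partners, colored by the limma result, with a black bar at the median of each list. The trafficking list lies wholly at the left and the proliferation list wholly at the right, while the deadenylase genes lie between -0.30 and 1.41, most of them on the right.

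Other genes of quiescence were mixed. Of 12, 7 were lower and 4 were higher in GC B cells, with a median of -0.99. The lower ones were led by the CDK inhibitor gene Cdkn1b (6.66 ± 0.786 against 90.2 ± 5.56 TPM; -3.58, adjusted p = 6.07e-07), the translation inhibitor gene Pdcd4 (-3.36, adjusted p = 1.34e-05) and the glucocorticoid-induced gene Tsc22d3 (-2.53, adjusted p = 0.000106). The higher ones were led by the CDK inhibitor gene Cdkn2c (64.8 ± 0.377 against 7.44 ± 0.318 TPM; 2.96, adjusted p = 2.81e-07), Foxj1 (1.16, adjusted p = 0.0021) and Cdkn1a (1.10, adjusted p = 0.00553). All 10 proliferation genes were higher in GC B cells, with a median of 5.34 and Mki67 at 228 ± 1.04 against 0.785 ± 0.107 TPM.

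Several members, among them Klf2, Klf4, Klf6, Klf10 and Btg2, are also quickly induced by stimuli, so immediate early genes were examined beside them. Of 11 tested, 6 were lower in GC B cells and 1 was higher (2 without GC replicate 1), with a median of -1.28. Among all genes tested 30.1% were lower and 35.5% were higher. The summed level of the list was 348 to 369.5 TPM in the GC pools and 790.5 to 859.8 TPM in the naive pools. Egr3 (-3.88, adjusted p = 5.46e-07), Nr4a1 (-2.81, adjusted p = 2.67e-06) and Ier2 (-2.49, adjusted p = 1.09e-06) were lower, and Dusp1 was higher (2.03, adjusted p = 0.000158). No gene of this list was listed at 0 in all pools, and its part in the values of the members was not tested.

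The genes whose profile over the 6 pools was most like that of a member were found by the root mean square difference of centred log2 values among 8425 genes whose mean reached 10 TPM. For Klf2 they were Ccr7 (0.230 log2 units), Cnn3 (0.260) and Cd55 (0.265). For Btg1 the distances were smaller, at 0.0482 for Man1a, 0.0511 for Add3 and 0.0590 for Rnf13. For Tob1 they were Zfp646 (0.0406), Ankhd1 (0.0422) and Atg13 (0.0510), of which Zfp646 and Ankhd1 passed the threshold as lower in GC B cells (adjusted p = 0.0259 and 0.0266), and Atg13, like Tob1, did not (adjusted p = 0.141).

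The sorted populations carried the markers of their labels. Apart from Fas, the 5 GC markers were all higher in GC B cells, with sums of 1302 to 1319 TPM against 48.6 to 53.9 TPM, and the 4 naive markers were all lower. B cell markers summed to 3884 to 3931 TPM in GC and 5783 to 5913 TPM in naive pools. T cell markers summed to at most 3.68 TPM, myeloid markers to at most 7.07 TPM and stromal markers to at most 0.0969 TPM in any pool. Plasma cell markers summed to 766 to 801 TPM in GC and 140.0 to 173 TPM in naive pools (2 of 4 higher, 2 lower). Most of this sum was Jchain (means of 669 and 33.3 TPM in GC and naive B cells) and Xbp1 (104 and 120 TPM). Prdm1 averaged 5.01 and 0.955 TPM, and Sdc1 1.51 and 3.19 TPM. Endothelial markers summed to 22.6 to 24.4 TPM in GC and 122 to 132 TPM in naive pools. Most of this sum was Pecam1, with means of 23.3 and 126 TPM. Pecam1 was the 1 of 3 tested and was lower in GC B cells. Cdh5 averaged 0.467 and 0.779 TPM, and Kdr was listed at 0. Depth was about 9700000 to 11800000 reads per pool, and 16100000 in naive replicate 2.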

How the data were processed

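RNA was measured in 3 GC and 3 naive pools. The authors ran CASAVA 1.8, FastQC and cutadapt 1.9, quantified reads with RSEM 1.2.25 on the NCBIm38 transcriptome (Ensembl 75; fragment length 180, SD 50), and deposited FPKM values with 2 decimals. The submitters' notes also list edgeR, without a role. Reads shared by paralogs are divided by the RSEM model, which makes such genes less certain. FPKM were rescaled to TPM (FPKM divided by the pool total, times 1000000). FPKM totals were 717537 to 774597. Steps of 1 read in low values gave the approximate depths, with 66.9% to 73.2% of such values within 0.15 of a whole read. The reads given for a member assume its longest coding transcript. The deposited values are FPKM and not counts, so no count test was used.

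The test was limma 3.58.1 under R 4.3.3 (lmFit; eBayes with a trend) on log2(TPM + 1), GC against naive pools, after a filter that kept genes reaching 1 TPM in 3 or more pools. Some genes passed this filter only through the population where they were high. Among them were Klf3 and Klf12 (naive pools) and Foxj1 and Mki67 (GC pools). Klf4, Btg3 and Ccr7 reached 1 TPM in every naive pool but not in every GC pool. Fitting was tested on simulated data with few changed genes, unlike these data, which checks the code and not the calls. P-values set the difference between group means against the spread between pools, which limma partly shares across genes. Symbols named 33398 of 39179 identifiers. Gene positions and promoters are RefSeq GRCm38.p6. Other steps used Python 3.11.15, numpy 2.4.6, pandas 2.3.3 and matplotlib 3.10.9. The members, gene lists and tests were chosen with earlier results of these data known. All members are named. From each list up to 3 called genes per direction with the largest log2 difference are named, together with any gene of a list of at most 4 and any other KLF, BTG or TOB gene, and the 3 genes most like Klf2, Btg1 and Tob1. Alternatives were the pseudocount, the filter, the scaling, the variance trend, the replicate block, the genes of the family sum, and leaving out each pool. Not every gene of the lists is reported here.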

Additional observations from a re-analysis of the deposited data

How the results depend on the processing

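Of 149 alternative values of the 10 members, 145 kept both direction and side of the threshold, 0 were reversed and 0 lost a call. The other 4 were Tob1, which passed the threshold under FPKM as deposited, quantile normalization, the median of ratios and without naive replicate 3; the cause was not tested. Klf4 had no value under the filter of 5 TPM, which removes it. The number of genes called was 8392, and it was 7180 to 8639 over the alternatives with all pools and 7656 to 8101 when 1 pool was left out. Taking all measured family genes as the sum, the share of Klf2 in naive B cells was 56.7%, that of Klf13 in GC B cells 28.5%, and that of Btg1 50.6% in GC and 62.8% in naive B cells, because the sum then holds more genes. Pools of both populations are numbered 1 to 3, and labels and methods do not say whether same-numbered pools came from the same mice. Deviations of same-numbered pools correlated at 0.083, 0.0225 and 0.0456, which cannot settle this. The numbers were not taken as pairing in the main test. Of 6 pools all but naive replicate 2 correlated best with their own number. With the replicate block, 7960 genes were called and the calls of the members did not change, while of the listed genes Klf12, Siah1a, Pan3, Hdac2 and Kat2b lost theirs, Fos and Egr1 passed as higher and Lyz2 as lower in GC B cells. Precision is limited by 3 pools per population and by low depth for Klf3, Klf4 and Klf2 in GC B cells.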
